A study of Mus musculus with 4 samples.

Results

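The miR-29 family was followed in small RNA libraries of mouse aorta through its 3 mature 3p miRNAs, miR-29a-3p, miR-29b-3p and miR-29c-3p. They were taken by name from the 1152 entries listed for each library, and all 3 were listed and had reads in every library. The study concerned microRNAs (miRNAs) of arteries that calcify in chronic kidney disease (CKD). There were 2 CKD libraries and 2 Sham libraries, all from the aortas of 12-week wild type C57BL/6 mice, and each library was a pool of 4 samples. For CKD the labels describe removal of both poles of the left kidney, removal of the right kidney after 1 week, and then 4 weeks on food with 2% phosphate and drinking water with 0.45% NaCl. The Sham libraries carry the same treatment text, so the sources used here do not say how Sham mice were handled. A pool hides the differences between its animals, and nothing in the labels says that the pools of a group were of separate animals, so the p-values reflect only how far these libraries spread, which may be technical.

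miRNAs are short RNAs that guide repressor complexes to messenger RNAs, mainly by pairing through bases 2 to 8, the seed. The miR-29 family is known for repressing many genes of the extracellular matrix at once, among them fibrillar collagens, elastin and fibrillin, and it is commonly low in fibrotic tissue. In the arterial wall it has also been studied in aneurysm, and in cultured smooth muscle cells it has been described as holding back calcification through the protease Adamts7. Neither matrix transcripts nor calcification were measured in these libraries.

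The mature sequences are shown because they decide which members can be told apart. They are RefSeq sequences on build GRCm38.p6, 5′ to 3′, with the seed in capitals, and all 3 members were found there.
miR-29a-3p: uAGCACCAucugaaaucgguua
miR-29b-3p: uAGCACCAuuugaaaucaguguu
miR-29c-3p: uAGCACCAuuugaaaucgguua
All 3 carry the seed AGCACCA, and among 1679 mature mouse miRNAs of that table no other does. Counting from 1 at the 5′ end, miR-29a-3p and miR-29c-3p differ over their 22 bases by a single substitution, C10U (miR-29a-3p base first). From miR-29a-3p to miR-29b-3p there are 4 differences in 22 bases, C10U, G18A, U21G and A22U, and miR-29b-3p is 1 base longer, at 23. Because of the single base, reads with an error at position 10 could be counted to the wrong one of miR-29a-3p and miR-29c-3p, and the sources used here do not say how such reads were treated. miR-29b-3p ends in AGUGUU, an element described in human cells as directing it to the nucleus, and 2 of the 1679 mature miRNAs (0.119%) end so, the other being miR-92b-5p.

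The family is made from 4 hairpins in a pair of clusters, shown here with both mature arms in capitals because the 5p arms identify the locus.
Mir29a: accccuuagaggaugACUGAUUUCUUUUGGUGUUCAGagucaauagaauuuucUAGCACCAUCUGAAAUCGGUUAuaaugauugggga
Mir29b-1: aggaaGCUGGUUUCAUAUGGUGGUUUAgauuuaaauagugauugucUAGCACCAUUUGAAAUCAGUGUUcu
Mir29b-2: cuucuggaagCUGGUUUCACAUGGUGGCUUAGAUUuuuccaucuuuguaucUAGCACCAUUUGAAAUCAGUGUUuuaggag
Mir29c: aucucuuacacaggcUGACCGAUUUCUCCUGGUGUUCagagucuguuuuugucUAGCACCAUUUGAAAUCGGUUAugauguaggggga
In GRCm38, Mir29a (chr6:31062660-31062747) and Mir29b-1 (chr6:31063023-31063093) lie on the minus strand of chromosome 6 with 275 bases between them. Mir29a overlaps no other annotated gene, and the 5′ end of Mir29b-1 overlaps an exon of the lincRNA Gm27019 on the same strand. Mir29b-2 (chr1:195037040-195037120) and Mir29c (chr1:195037547-195037634) lie on the plus strand of chromosome 1 with 426 bases between them, both in exons of the noncoding transcript A330023F24Rik and opposite exons of Cd46 on the other strand. Both Mir29b hairpins give the same miR-29b-3p, so its reads cannot be assigned to a locus. Their 5p arms differ at 2 of 21 aligned bases, U11C and U19C (miR-29b-1-5p base first, positions from its 5′ end), besides their ends.

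The libraries held 17532748 and 16658810 reads in CKD and 17520690 and 16878392 reads in Sham over the listed entries, so 3 reads, the limit that a count of 0 allows, came to 0.171 to 0.180 CPM, that is counts per 1000000 reads. miR-143-3p, the main smooth muscle miRNA, took 41.1% and 40.8% of the reads in CKD and 79.8% and 72.5% in Sham. CPM sums to 1000000 in each library, so a smaller share of miR-143-3p leaves more of that total to the other entries, and the median log2 difference (CKD minus Sham) of the 479 entries with a mean of at least 1 CPM was 1.34. Each member is therefore given on 2 scales, the deposited CPM and CPM divided by trimmed-mean (TMM) factors, which take out the shift shared by most entries and brought that median to -0.00083. With the same limma test on both, 397 entries were higher and 5 lower in CKD on the deposited scale, and 9 were higher and 28 lower after TMM scaling.

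On the deposited scale the CKD libraries lay above the Sham libraries for all 3 members, as they did for 91.2% of the 479 tested entries. After TMM scaling miR-29b-3p was about 1.94-fold higher in CKD and passed the test, miR-29a-3p was 1.64-fold higher and just missed it, and miR-29c-3p was at 1.03-fold. Within each library, miR-29c-3p made up a smaller part of the family in CKD than in Sham. Relative to miR-29a-3p, the main member, 72.0% of the other tested entries were likewise lower in CKD with groups apart.

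miR-29a-3p was the main form of the family in every library. It had 20763 and 15995 CPM in the CKD libraries, against 3231 and 4286 CPM in the Sham libraries. Its lowest CKD value was above its highest Sham value, and it ranked 10th and 13th of all entries in CKD and 17th and 18th in Sham. The means were 18379 ± 3371 CPM in CKD and 3758 ± 746 CPM in Sham (SD, n = 2 libraries each), 4.89-fold higher in CKD. On the log2(CPM + 1) scale it rose by 2.29 (SE 0.30, limma adjusted p = 4.5e-04).

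After TMM scaling the levels of miR-29a-3p were 11480 and 9635 scaled CPM in CKD, against 6749 and 6160 scaled CPM in Sham. The groups still did not overlap. The log2 difference was 0.71 (SE 0.14, 95% interval 0.34 to 1.07, limma adjusted p = 0.053). Of 19 alternatives it passed in 5 and missed in the others, with a positive difference in each. TMM factors from all listed entries, where it passed (limma adjusted p = 0.040), were an alternative added after seeing the data. The lowest adjusted p, 4.9e-06, was that of DESeq2 on its own factors. Without a filter it was 0.13 by limma. Of the reads other than miR-143-3p, miR-29a-3p held 3.53% and 2.70% in CKD, against 1.60% and 1.56% in Sham.

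miR-29b-3p, the least abundant of the 3, showed the largest difference of the family on both scales. It had 473 and 363 CPM in the CKD libraries, against 58.4 and 87.0 CPM in the Sham libraries. The lowest CKD value was more than 4 times the highest Sham value, and the exact Poisson 95% intervals, which cover counting error only, were 354 to 372 CPM for the lower CKD library and 82.6 to 91.6 CPM for the higher Sham library. The means were 418 ± 78.0 CPM in CKD and 72.7 ± 20.3 CPM in Sham (SD, n = 2 each), 5.75-fold higher in CKD. It rose by 2.52 on the deposited log2 scale (SE 0.42, limma adjusted p = 9.9e-04), the 11th highest difference of 479 tested entries.

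After TMM scaling miR-29b-3p had 261 and 218 scaled CPM in CKD, against 122 and 125 scaled CPM in Sham. The Sham libraries lay close together and both CKD libraries far above them. It rose by 0.95 (SE 0.14, 95% interval 0.57 to 1.33, limma adjusted p = 0.038), one of 9 entries higher on this scale. The call was lost without any 1 of the 4 libraries, at differences of 0.81 to 1.08 and limma adjusted p of 0.13 to 0.22, and over 19 alternatives the adjusted p ran from 1.0e-08 to 0.22 with the same direction.

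miR-29c-3p lay close to the shared shift. It had 785 and 593 CPM in the CKD libraries, against 203 and 238 CPM in the Sham libraries. The groups were apart on this scale, with means of 689 ± 136 CPM in CKD and 220 ± 24.8 CPM in Sham (SD, n = 2 each), 3.13-fold higher in CKD. It rose by 1.63 on the deposited log2 scale (SE 0.41, limma adjusted p = 0.0040), a call that did not hold when CKD 1 was left out (1.43, limma adjusted p = 0.14) or when CKD 2 was (1.83, limma adjusted p = 0.067). After TMM scaling it had 434 and 357 scaled CPM in CKD, against 423 and 342 scaled CPM in Sham. The groups overlapped almost wholly, and the difference of 0.05 (SE 0.18, limma adjusted p = 0.89) had a 95% interval of -0.43 to 0.52, which does not show that the levels were alike.

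The members' counts are read against those of all entries. On the deposited scale 82.9% of the 479 tested entries rose and 91.2% had both CKD libraries above both Sham libraries, so 3 of 3 members rising there was near the background. After TMM scaling 1.88% of entries rose and 28.0% had both CKD libraries above both Sham libraries, against 1 of 3 members that rose and 2 of 3 that were apart in this way. A difference above 0 was found for 49.9% of entries and for 3 of 3 members. By difference after TMM scaling the members stood at ranks 31 (miR-29b-3p), 49 (miR-29a-3p) and 219 (miR-29c-3p) of 479. Among the 265 entries with a mean of at least 10 CPM, these ranks were 11, 19 and 120.

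**Figure D1:**
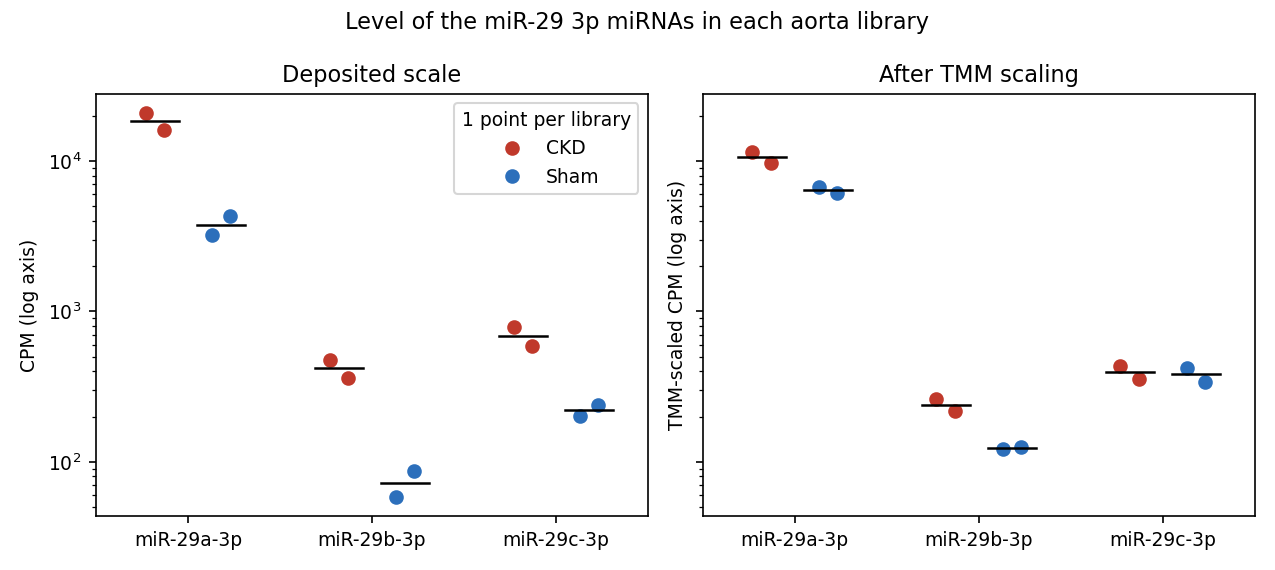
Level of each miR-29 member in each aorta library, as deposited CPM (left) and as TMM-scaled CPM (right), both on log axes. Each point is 1 library, CKD in red and Sham in blue, and black lines are group means of 2 libraries; the CKD and Sham points of miR-29c-3p overlap after scaling and those of miR-29a-3p and miR-29b-3p do not.

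**Figure D2:**
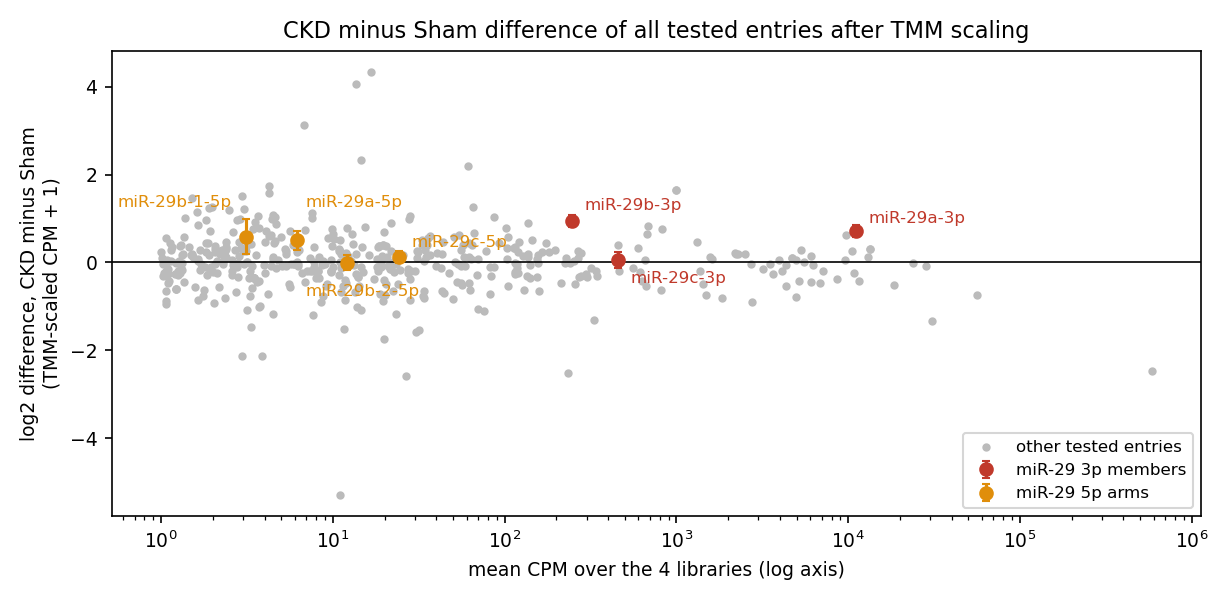
Log2 difference, CKD minus Sham, of TMM-scaled CPM + 1 against mean CPM (log axis) for the 479 tested entries. Bars are standard errors of the fit for the 3 members (red) and the 4 opposite arms (orange); miR-29b-3p lies at 0.95, miR-29a-3p at 0.71 and miR-29c-3p at 0.05.

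Ratios between members of one library do not depend on how the libraries are scaled. In the CKD libraries there was relatively more miR-29b-3p and less miR-29c-3p in the family than in the Sham libraries. With 2 libraries against 2, the exact permutation test cannot give a two-sided p below 0.333, so none of the ratios could pass a threshold of 0.05, and the spread between libraries is given in its place.

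For each miR-29c-3p read there were 26.5 and 27.0 miR-29a-3p reads in the CKD libraries, against 15.9 and 18.0 in the Sham libraries. The log2 ratio of miR-29c-3p to miR-29a-3p averaged -4.74 ± 0.020 in CKD and -4.08 ± 0.13 in Sham (SD, n = 2 each), a difference of -0.66 (two-sided exact permutation p = 0.333). Both CKD libraries lay below both Sham libraries by far more than the spread within either group. This is near the background: relative to miR-29a-3p, 74.9% of the other 478 tested entries had groups apart, and 72.0% were apart with CKD lower.

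For each miR-29b-3p read there were 43.9 and 44.1 miR-29a-3p reads in CKD, against 55.3 and 49.3 in Sham. The log2 ratio of miR-29b-3p to miR-29a-3p averaged -5.46 ± 0.0048 in CKD and -5.71 ± 0.12 in Sham (SD, n = 2 each), a difference of 0.25 (two-sided exact permutation p = 0.333) that was 0.16 without Sham 1. The groups were apart, but the distance from the CKD libraries to Sham 2 was about the distance between the Sham libraries. Here 2.93% of the other tested entries, 14 of 478 with miR-29b-3p among them, were apart with CKD higher relative to miR-29a-3p, and 83.1% of entries had groups apart relative to miR-29b-3p.

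The ratio of miR-29b-3p to miR-29c-3p differed most of the 3. It was 0.603 and 0.612 in CKD, against 0.288 and 0.366 in Sham. On the log2 scale the difference was 0.90, from means of -0.72 ± 0.016 in CKD and -1.62 ± 0.24 in Sham (SD, n = 2 each; two-sided exact permutation p = 0.333). Relative to miR-29c-3p, 47.5% of the other tested entries had groups apart, 19.5% with CKD higher. The order of the levels, miR-29a-3p above miR-29c-3p above miR-29b-3p, was the same in all 4 libraries, although small RNAs differ in how well adaptors join to them, so the order of reads need not be that of molecules.

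In shares of the family's reads, miR-29c-3p made up 3.56% and 3.50% in CKD, against 5.80% and 5.16% in Sham. miR-29b-3p made up 2.15% and 2.14% in CKD, against 1.67% and 1.89% in Sham. miR-29a-3p made up the rest, 94.3% and 94.4% in CKD, against 92.5% and 93.0% in Sham. Wilson 95% intervals cover counting error only and not the spread between libraries. Those nearest to each other were 2.09% to 2.19% (CKD 2) and 1.79% to 1.99% (Sham 2) for miR-29b-3p. For miR-29c-3p they were 3.51% to 3.62% (CKD 1) and 5.00% to 5.31% (Sham 2). The sum of the family had 22021 and 16951 CPM in CKD, against 3492 and 4611 CPM in Sham, a 4.81-fold difference of means that was 1.61-fold after TMM scaling.

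**Figure D3:**
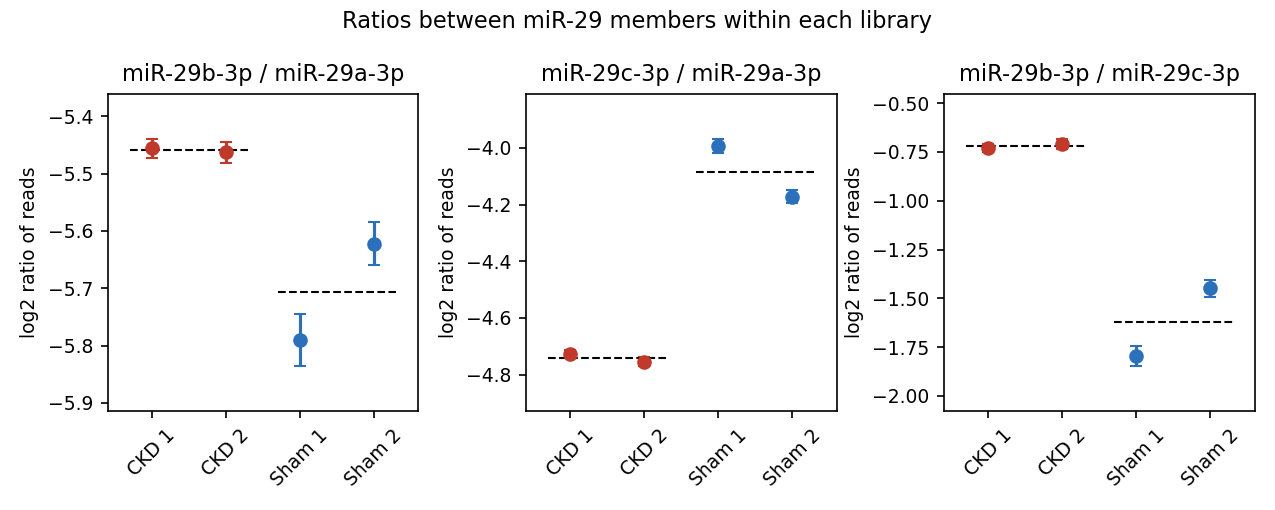
Log2 ratios of reads between miR-29 members within each library, CKD in red and Sham in blue. Bars are counting errors (1 standard error) and dashed lines are group means; the CKD libraries are almost level in each panel, while the Sham libraries lie apart from them and from each other.

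The 5p arms, the strands opposite the guide strands in the hairpins, had far fewer reads than the 3p arms, and they tell the clusters apart. On the deposited scale, where 82.9% of entries rose, all 4 arms did, with a limma adjusted p between 0.0012 (miR-29a-5p) and 0.0030 (miR-29b-1-5p). After TMM scaling none of the 4 passed by limma, by limma voom or by edgeR. None passed by DESeq2 either, which used its own median-of-ratios factors. With these tools none had an unadjusted p under 0.05. The background by edgeR was 1.67% of entries higher and 4.80% lower.

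The arms of the chromosome 6 cluster were scarce in Sham. miR-29a-5p had 11.2 and 8.94 CPM in the CKD libraries, against 1.48 and 3.20 CPM in the Sham libraries. miR-29b-1-5p had 4.39 and 5.82 CPM in CKD, against 0.400 and 1.90 CPM in Sham, the lowest of these resting on 7 reads. Neither overlapped between groups on the deposited scale, where 91.2% of entries had both CKD libraries above both Sham libraries. After TMM scaling miR-29b-1-5p overlapped (2.43 and 3.51 scaled CPM in CKD, against 0.836 and 2.73 scaled CPM in Sham) and miR-29a-5p did not. On this scale 28.0% of all tested entries had both CKD libraries above both Sham libraries. The log2 difference after TMM scaling was 0.50 (SE 0.21, limma adjusted p = 0.24) for miR-29a-5p. For miR-29b-1-5p it was 0.59 (SE 0.40, limma adjusted p = 0.39).

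The arms of the chromosome 1 cluster were the more abundant ones. miR-29c-5p had 41.0 and 33.2 CPM in CKD, against 9.65 and 13.2 CPM in Sham. miR-29b-2-5p had 17.3 and 18.8 CPM in CKD, against 4.57 and 7.94 CPM in Sham. Both lay near the shared shift, at 0.12 (SE 0.13, limma adjusted p = 0.59) and -0.0050 (SE 0.16, limma adjusted p = 0.99) after TMM scaling.

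By locus, the 3 products specific to chromosome 6 thus lay between 0.50 and 0.71 after TMM scaling, the 3 specific to chromosome 1 between -0.0050 and 0.12, and miR-29b-3p, made by both, at 0.95. This grouping was made after the values were seen, and products of one cluster share their transcript. For each read of the chromosome 6 arms, there were 3.73 and 3.52 reads of the chromosome 1 arms in the CKD libraries, against 7.56 and 4.14 in the Sham libraries. The log2 ratio of the summed 5p arms, chromosome 6 to chromosome 1, averaged -1.86 ± 0.058 in CKD and -2.48 ± 0.62 in Sham (SD, n = 2 each), a difference of 0.63 (two-sided exact permutation p = 0.333). Without Sham 1 the difference was 0.19, an alternative added after seeing the data. The groups did not overlap, but CKD 2 and CKD 1 were nearer to Sham 2 than Sham 2 was to Sham 1.

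**Figure D4:**
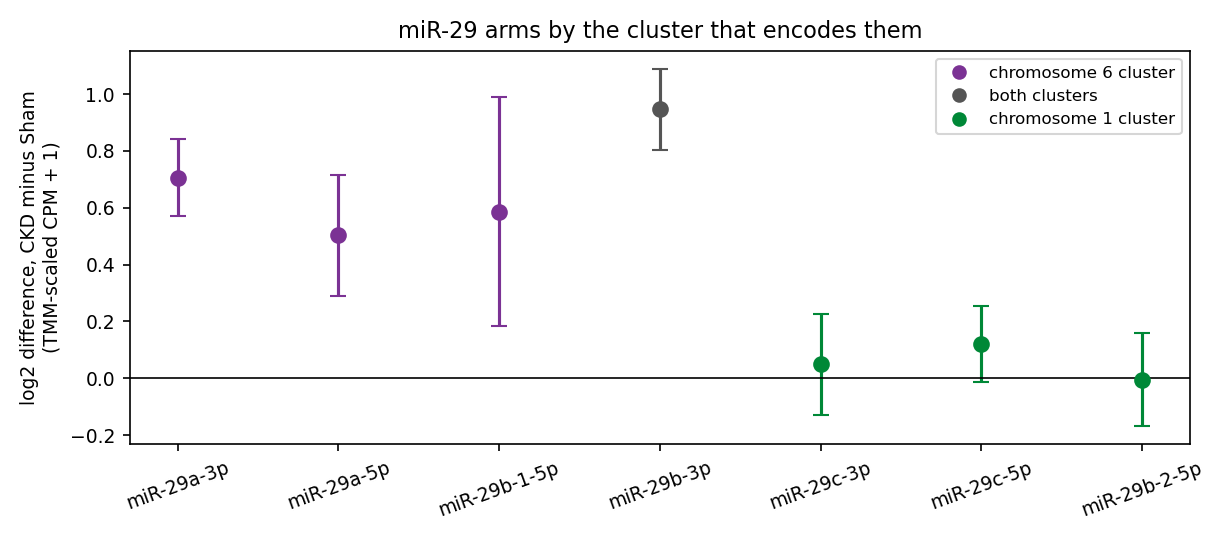
Log2 difference, CKD minus Sham, of TMM-scaled CPM + 1 for each miR-29 product, by the cluster that encodes it, with standard errors of the fit. Products of the chromosome 6 cluster (purple) lie between 0.50 and 0.71 and those of the chromosome 1 cluster (green) between -0.0050 and 0.12, with miR-29b-3p, which both encode, at 0.95 (grey).

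The proportion of the arms of a hairpin is also free of scaling. For the miR-29b hairpins, the 3p arm had 21.8 and 14.7 reads for each read of the summed 5p arms in CKD, against 11.7 and 8.84 in Sham. On the log2 scale the difference was 0.81, from means of 4.16 ± 0.40 in CKD and 3.35 ± 0.29 in Sham (SD, n = 2 each; two-sided exact permutation p = 0.333), and it was 0.53 without CKD 1. Of 130 hairpins with both arms tested, 60.0% had groups apart in this ratio and 29.2% were apart with CKD higher, and the difference of 7 of the 130 was above that of miR-29b. For miR-29c the 3p arm had 19.1 and 17.9 reads for each 5p read in CKD, against 21.0 and 18.1 in Sham, and for miR-29a it had 1847 and 1789 in CKD, against 2183 and 1339 in Sham. Both of these overlapped between the groups.

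The entries most like each member over the 4 libraries were found by the Euclidean distance between log2(CPM + 1) profiles centred on their own means, among 253 named miRNAs with a mean of at least 10 CPM. Since these profiles mostly follow the difference between CKD and Sham, like differences come with the choice, and the values below are a description with no test. For miR-29a-3p they were miR-214-3p (distance 0.083), miR-125b-1-3p (0.19), miR-192-5p (0.23), miR-1843b-5p (0.25) and miR-29b-3p (0.26). miR-214-3p, a miRNA of mesenchymal cells, had 1285 and 949 CPM in CKD, against 198 and 275 CPM in Sham, and its log2 difference after TMM scaling was 0.66. For miR-29b-3p they were miR-139-5p (0.24), miR-29a-3p (0.26), miR-214-3p (0.29), miR-221-3p (0.34) and miR-224-5p (0.35). miR-221-3p, a growth-promoting miRNA of smooth muscle, and miR-224-5p had log2 differences of 0.76 and 0.83 after TMM scaling, and that of miR-139-5p was 0.98.

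miR-29c-3p kept other company. Its nearest profiles were those of miR-27a-3p (distance 0.065), miR-151-3p (0.087), miR-34a-5p (0.088), miR-30b-3p (0.093) and miR-214-5p (0.12). miR-27a-3p had 8298 and 6109 CPM in CKD, against 2027 and 2400 CPM in Sham, and a log2 difference of 0.10 after TMM scaling. In the order of likeness to miR-29c-3p, miR-29a-3p came at place 168 and miR-29b-3p at place 215, while miR-29c-3p came at place 84 in the order of likeness to miR-29a-3p and at place 93 in that to miR-29b-3p.

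Other miRNAs that act on matrix genes were counted in 3 lists. No member of these lists rose by limma after TMM scaling with the filter at a mean of 1 CPM. At a mean of at least 10 CPM, 1 of 8 tested profibrotic and mesenchymal miRNAs rose, against 9 of 265 entries. Of 9 other repressors of collagens or elastin, 8 rose and 1 fell on the deposited scale, where 82.9% of all tested entries rose and 1.04% fell, a background that also holds for the next lists. After TMM scaling none rose and 1 fell by limma, with a median of -0.12. By DESeq2, on its own factors, 0 were higher and 2 lower, against 5.43% and 10.0% of all tested entries. let-7g-5p, a member of the let-7 family, had 9367 and 11301 CPM in CKD, against 3429 and 4514 CPM in Sham (-0.20 after TMM scaling, SE 0.17, limma adjusted p = 0.48). miR-16-5p, of the miR-15 family that targets elastin, lay at 0.07 (SE 0.14, limma adjusted p = 0.75). miR-196a-5p, encoded in the Hox clusters and described as a repressor of collagen in skin fibroblasts, fell by 2.13 (SE 0.25, limma adjusted p = 0.020).

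Of 8 repressors of Ccn2, a matricellular growth factor, all 8 rose on the deposited scale. After TMM scaling none was called by limma (0 at an unadjusted p under 0.05), by edgeR or by voom. By DESeq2, on its own factors, 1 was higher. The median of the 8 was -0.019 after TMM scaling. Their most abundant members were miR-26a-5p, at -0.09 (SE 0.11, limma adjusted p = 0.61), and miR-30c-5p, at -0.05 (SE 0.10, limma adjusted p = 0.77). Of 9 profibrotic and mesenchymal miRNAs, 7 rose on the deposited scale, and after TMM scaling none rose and 1 fell by limma, with a median of 0.30. At an unadjusted p under 0.05 there were 7 of 9, against 25.9% of all tested entries in either direction. Of the 7, 5 were higher and 2 (miR-21a-3p at -0.92 and miR-199b-5p) lower. The 5 include miR-199a-3p and miR-199b-3p, so the same values are counted under both names. By DESeq2 4 of these 9 were higher and 1 lower, and by edgeR and by voom 0 were higher and 1 lower. miR-199a-3p and miR-199b-3p, listed with equal values, lay at 0.30 (SE 0.099, limma adjusted p = 0.15), and miR-199b-5p fell by 1.31 (SE 0.13, limma adjusted p = 0.012), although its deposited difference was positive, at 0.27 (limma adjusted p = 0.54). The background after TMM scaling was 1.88% of entries higher and 5.85% lower by limma, and 1.46% and 5.64% by voom. By DESeq2, on its own factors, it was 5.43% and 10.0%. On the deposited scale without CKD 1, the numbers that rose were 1 of 9 collagen or elastin repressors, 1 of 8 Ccn2 repressors and 3 of 9 profibrotic miRNAs, against 29.3% of all entries. Without CKD 2 they were 2, 5 and 7, against 52.7% of all entries.

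Markers of the cell types an aorta can hold were measured beside the family, and their part in its result was not tested. In such tissue a smaller number of cells and less RNA per cell cannot be told apart. The 4 smooth muscle markers summed to 485612 and 488708 CPM in CKD, against 833695 and 774989 CPM in Sham (0.197-fold after TMM scaling), most of it miR-143-3p. On the deposited scale the other 3 were higher in CKD, miR-145a-5p (log2 0.85, limma adjusted p = 0.0043) and miR-145a-3p (1.81, limma adjusted p = 0.0018) past the threshold and miR-143-5p (0.77, limma adjusted p = 0.063) not. After TMM scaling these were at -0.73, 0.22 and -0.81, of which that of miR-145a-5p alone passed (limma adjusted p = 0.044). The 2 endothelial markers (miR-126a arms) summed to 9989 and 9767 CPM in CKD, against 2899 and 3411 CPM in Sham, and were 1.04-fold after TMM scaling. The 5 erythroid markers summed to 1481 and 8070 CPM in CKD, against 296 and 1052 CPM in Sham, and CKD 2 held the most. miR-486a-5p and miR-486b-5p, listed with equal values, both enter this sum. Each had 445 and 3266 CPM in CKD, against 76.9 and 212 CPM in Sham.

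The 5 leukocyte markers summed to 424 and 474 CPM in CKD, against 82.2 and 229 CPM in Sham (1.04-fold after TMM scaling). The 7 striated muscle markers summed to 1287 and 1026 CPM in CKD, against 533 and 651 CPM in Sham, 1.95-fold on this scale but 0.649-fold after TMM scaling, most of it miR-133a-3p, and miR-206-3p had no reads in Sham 2. The 5 epithelial markers summed to 124 and 78.0 CPM in CKD, against 32.0 and 25.4 CPM in Sham (1.12-fold after TMM scaling). The 2 hepatocyte markers (miR-122 arms) summed to 161 and 56.3 CPM in CKD, against 1.43 and 25.5 CPM in Sham, with miR-122-3p at 0 in Sham 1. Relative to the shared shift, the erythroid sum was 2.66-fold and the hepatocyte sum 3.10-fold higher in CKD. Libraries of one group were far apart in both, and the erythroid sum takes the equal miR-486 values under both names. No tested marker was called higher in CKD after TMM scaling, and miR-143-3p and miR-145a-5p were called lower.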

How the data were processed

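Aortic RNA was cut to 18 to 30 nucleotides on a gel and sequenced after adaptor ligation, per the labels' protocols. The submitters' processing notes name Bowtie, without a version, and build GRCm38. The sources used here do not say how reads were counted or how reads with several matching miRNAs were assigned. The deposited values sum to about 1000000 per library and were read as CPM. 3 of the files stack names over values in one column, which were paired by position, and the order of names was equal in all 4. Whole reads could be recovered: within 0.005 CPM, 100% of values above 0 in each library were a multiple of what 1 read is worth.

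The test was limma 3.58.1 (R 4.3.3) with a mean-variance trend on log2(CPM + 1) for the 479 of 1152 entries with a mean of at least 1 CPM, group as the only term, two-sided, with Benjamini-Hochberg adjustment over all 479 and a threshold of 0.05. For low entries the added 1 CPM makes a difference smaller than the true change. TMM factors came from recovered reads of the same entries and were 1.81 and 1.66 in CKD and 0.479 and 0.696 in Sham. They assume that most entries did not change. edgeR 4.0.16 and DESeq2 1.42.0 on recovered reads were alternatives, edgeR with the TMM factors and DESeq2 with its own median-of-ratios factors. The design foresaw CPM, so no test was changed. The tests were also run on simulated counts that had the same dispersion for every entry. Such counts cannot show how the tests perform with the spread of these libraries.

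Named miRNAs were the 3 members, the miR-29 5p arms, the 5 nearest profiles of each member, the 2 most abundant and up to 2 called entries of each matrix list, and miR-143-3p. The members, lists and tests were chosen with earlier results of these data known. Reads carry no molecular identifiers. The Poisson and Wilson intervals cover counting error only, while the limma intervals come from the spread between libraries. Within each group the libraries differed beyond sampling noise (chi-square per degree of freedom 220 in CKD and 311 in Sham) and were kept as 2 each. No batch is given in the labels.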

Additional observations from a re-analysis of the deposited data

How the results depend on the processing

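Depth did not limit the 3 members, the rarest of which had 1023 reads or more in each library, but it limits miR-29b-1-5p. The number of libraries limits everything else. DESeq2 is counted with the TMM fits below, although it used its own median-of-ratios factors. Counts of calls after TMM scaling were 37 of 479 with limma, 18 without a filter, 74 with DESeq2 (26 higher, 48 lower), and 0 to 7 when 1 library was left out. The 0 arose without CKD 1 and without CKD 2 (limma, with 92 and 109 entries at an unadjusted p under 0.05), and the other tools were not run there. On the deposited scale the count was 402, against 241 at a mean of at least 10 CPM, where 265 entries were tested, 28 (14 higher, 14 lower) with totals that leave out miR-143-3p, and 137 to 384 with 1 library left out. A library left alone in its group was assumed to vary like the other group.

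Among the 19 alternatives to the TMM fit, DESeq2 and those named by another scaling did not use TMM factors. miR-29b-3p kept its direction in all 19 and its call in 11. It missed the threshold without a filter (0.95, limma adjusted p = 0.061), without the trend (0.95, limma adjusted p = 0.055), with upper-quartile scaling (0.89, limma adjusted p = 0.054), with the replicate block (0.95, limma adjusted p = 0.063) and with 1 library left out (0.81 to 1.08). miR-29a-3p passed at a mean of at least 10 CPM (0.71, limma adjusted p = 0.038), with the robust fit (0.71, limma adjusted p = 0.034), with median-of-ratios scaling (0.76, limma adjusted p = 0.049), with DESeq2 (0.74, adjusted p = 4.9e-06) and with TMM factors from all entries (0.73, limma adjusted p = 0.040), the last chosen after seeing the data. Summed with miR-29c-3p it was at 0.68 (limma adjusted p = 0.061), and alone it ran from 0.57 to 0.84 with 1 library left out. miR-29c-3p turned negative with upper-quartile scaling (-0.0048) and ran from -0.099 to 0.20 with 1 library left out. Its deposited difference was 0.31 (limma adjusted p = 0.32) with totals that leave out miR-143-3p and 1.43 to 1.83 with 1 library left out. With totals that leave out miR-143-3p, miR-29a-3p was at 0.97 (limma adjusted p = 0.030) and miR-29b-3p at 1.21 (limma adjusted p = 0.026). There 14 entries were called higher and 14 lower, and the median difference of all tested entries was 0.22. The causes were not tested.

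The log2 difference in 3p to 5p ratio was 0.088 for miR-29a, 0.52 with 1 CPM added to each entry, and ran from -0.26 to 0.44 with 1 library left out. That of miR-29c was -0.076, ran from -0.18 to 0.032, and was 0.0050 with 1 CPM added. That of miR-29b ran from 0.53 to 1.10, and that in the summed 5p arms of the clusters from 0.19 to 1.06. The ratios between members and their shares kept their direction in every alternative run, with miR-29b-3p to miR-29a-3p at 0.16 to 0.33 with 1 library left out. For same-numbered libraries the labels give only the number in common. Their deviations correlated at 0.12 after TMM scaling across 479 entries, which cannot show whether they were paired. With the replicate block 10 entries were called after TMM scaling (4 higher, 6 lower), and the call of miR-29b-3p was lost.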
